A study of Mus musculus with 15 samples.

Results

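The forkhead factors Foxo1, Foxo3, Foxo4, Foxk1 and Foxk2, the tuberous sclerosis genes Tsc1 and Tsc2, and the kinase gene Mtor with the scaffolds of its complexes, Rptor and Rictor, were examined in HSC. The 10 genes are a list of names drawn up with earlier results of these data known, and all 10 were among the 16154 genes of the count table. HSC were sorted as Lin-Sca-1+cKit+CD150+CD48- bone marrow cells, and 20000 to 25000 cells of a single C57BL/6 mouse, female by the labels, gave 1 library of 3′ ends. There were 5 young mice (Young, 6 to 12 weeks of age, no treatment), 5 aged mice (Aged, 20 to 24 months, no treatment) and 5 aged mice given nicotinamide riboside, a precursor of NAD, at 3 mg/ml in the drinking water for 2 months (Aged_NR). There was no NR-treated young group, so NR was compared only within aged mice, and the Aged libraries enter both the comparison with age and that with NR.

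FOXO factors are transcription factors that growth factor signalling keeps out of the nucleus. The kinase AKT phosphorylates them and 14-3-3 proteins then hold them in the cytoplasm. In HSC they are known for maintaining quiescence and resistance to oxidative stress. mTOR, the kinase that couples growth to nutrients, works in mTORC1 with Raptor (Rptor), which recruits substrates, and in mTORC2 with Rictor, which is needed to phosphorylate AKT. The Tsc1 and Tsc2 proteins restrain mTORC1 by inactivating the small GTPase Rheb. FOXK factors bind related DNA motifs, repress autophagy genes when mTORC1 is active, and induce enzymes of glycolysis. Much of this control acts on the proteins, which the libraries do not measure.

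Total counts were 2122221 to 3631395 in Young, 764119 to 13318989 in Aged and 2486399 to 3595384 in Aged_NR libraries. Every member was above 3 counts, the level taken as not told from absence, in every library. The lowest count was 7, for Foxk2 in Aged replicate 2, the shallowest library. All 10 HSC markers (such as Kit, Slamf1 and Procr) were above 3 counts in every library, and their summed level was 1838 to 2194 CPM (counts scaled to the size of the library) in Young, 2117 to 2593 in Aged and 1913 to 2475 in Aged_NR. Of these 10 markers 4 rose with age, against 9.68% of all genes. Procr rose from a mean of 68.7 to 166 CPM, Ly6a from 131 to 301, Slamf1 from 42.7 to 76.5 and Hoxb5 from 17.0 to 27.2 CPM (adjusted p between 0.000103 and 0.00602, edgeR). Slamf1 was lower in Aged_NR than in Aged, at 53.7 CPM (adjusted p = 0.0288, edgeR). The part of these changes in the results for the members was not tested. Markers of mature blood cells differed between groups for some cell types. With age no neutrophil, granule or macrophage marker was called, and no T and NK cell marker was called in any comparison (edgeR). Summed erythroid markers were at 125 to 2624 CPM in Young, 3123 to 6461 in Aged and 65.7 to 548 in Aged_NR, and neutrophil and granule markers were at 23.7 to 5203, 1031 to 1660 and 15.7 to 166 CPM. Macrophage markers were at 376 to 2482, 681 to 1603 and 299 to 486 CPM. B cell markers were at 96.9 to 499, 493 to 3372 and 81.3 to 136 CPM. T and NK cell markers, of which 4 of 6 were in the table, were at 89.6 to 159, 77.5 to 102 and 41.1 to 150 CPM. All 6 erythroid and all 7 neutrophil markers fell from Aged to Aged_NR (called by edgeR, against 4.18% of all genes). Young replicates 1 and 5 held Y-linked transcripts at 99.7 and 105 CPM against their label of female, where no other library exceeded 3.00 CPM, and results that rest on them are also given without both. In bulk RNA, fewer cells of a type cannot be told apart from less RNA per cell.

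Between Young and Aged HSC, 3 of the 10 genes changed, the first FOXK gene upward and the second FOXK gene and the mTORC1 scaffold downward (edgeR quasi-likelihood test, Benjamini-Hochberg adjusted p under 0.05 over all genes). Of all genes 19.3% were called in this comparison, 9.68% higher and 9.63% lower in Aged. Between Aged and Aged_NR, 1 of 10 was called, Foxk1 downward, against 8.07% of all genes, 3.88% higher and 4.18% lower in Aged_NR. Between Young and Aged_NR, edgeR called 0 of 10, with 1 (Foxo1) at an unadjusted p under 0.05, and the likelihood ratio test, DESeq2 and limma-voom also called 0. The background there was 4.47%, with 2.56% higher and 1.91% lower in Aged_NR. With so few members, 3, 1 and 0 of 10 are counts to be read beside these shares and no more.

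**Figure D1:**
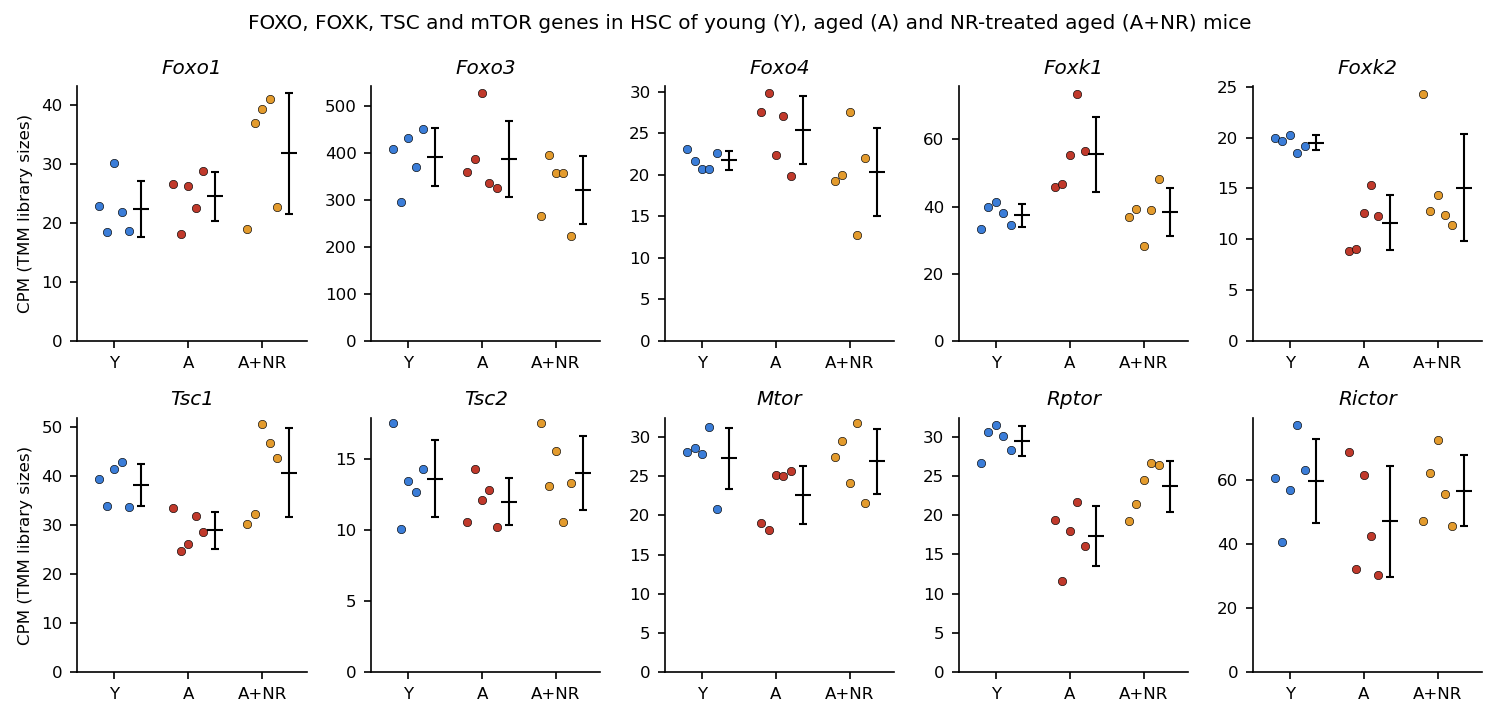
Each point is 1 library (5 per group). The vertical axis is CPM with TMM-scaled library sizes and starts at 0, and the bar beside each group is the mean with its SD. Foxk1 of all Aged libraries (45.8 to 73.6 CPM) lies above all Young libraries (33.3 to 41.3), while Foxk2 and Rptor of all Aged libraries lie below.

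Foxk2 and Rptor, the members that were lower in Aged HSC, both lie on chromosome 11 in GRCm38, Rptor at chr11:119602905-119899576 and Foxk2 at chr11:121259990-121309896, both on the + strand and 1360413 bases apart. Their promoters are shown because these genes moved the same way with age, and that of Rictor (gene at chr15:6708379-6800401, + strand) because it is the counterpart scaffold that was not called. Each sequence runs from 250 bases before to 50 bases after the start of the gene (RefSeq, GRCm38.p6, + strand), and capitals mark the GC box GGGCGG or its reverse complement CCGCCC.
Foxk2 promoter, chr11:121259737-121260036: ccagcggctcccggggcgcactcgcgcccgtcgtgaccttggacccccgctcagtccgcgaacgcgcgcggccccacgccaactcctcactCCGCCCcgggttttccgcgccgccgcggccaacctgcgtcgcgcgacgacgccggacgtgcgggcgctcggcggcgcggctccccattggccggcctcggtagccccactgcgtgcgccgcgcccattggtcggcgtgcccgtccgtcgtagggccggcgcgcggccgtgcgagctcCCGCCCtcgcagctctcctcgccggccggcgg
Rptor promoter, chr11:119602655-119602954: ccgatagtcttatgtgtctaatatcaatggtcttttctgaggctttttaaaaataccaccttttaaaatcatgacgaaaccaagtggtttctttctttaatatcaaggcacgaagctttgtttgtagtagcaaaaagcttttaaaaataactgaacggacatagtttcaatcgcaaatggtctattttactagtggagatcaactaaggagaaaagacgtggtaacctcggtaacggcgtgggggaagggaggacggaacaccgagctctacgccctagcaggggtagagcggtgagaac
Rictor promoter, chr15:6708131-6708430: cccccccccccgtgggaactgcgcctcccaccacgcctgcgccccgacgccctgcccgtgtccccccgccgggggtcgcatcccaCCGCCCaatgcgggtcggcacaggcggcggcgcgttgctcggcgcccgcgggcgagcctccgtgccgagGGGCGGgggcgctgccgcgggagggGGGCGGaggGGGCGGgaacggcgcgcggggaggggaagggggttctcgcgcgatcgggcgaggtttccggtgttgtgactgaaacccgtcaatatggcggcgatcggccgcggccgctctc
The Foxk2 window was 79.3% G or C with 2 GC boxes, that of Rictor 78.3% with 4, and that of Rptor 41.7% with none, where the median over all promoters of this length was 52.7%. The GC box was found in 35.7% of all 32851 promoters. Promoters of 8 members were matched, all but those of Foxk1 and Foxo4. None of the 8 held the forkhead core GTAAACA (3.65% of all promoters, both strands), the E-box CACGTG (7.15%) or the cyclic AMP element TGACGTCA (1.79%). The ETS core CCGGAAG (8.86%) occurred once in Mtor and at 2 places in Tsc2. Foxk2 and Rptor therefore shared none of the 5 motifs. These matches describe letters in a window, and say nothing of the factors.

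Foxk1, a forkhead repressor that acts with SIN3 at autophagy genes (chr5:142401497-142462011, + strand), was at 33.3, 39.8, 41.3, 38.1 and 34.5 CPM in Young replicates 1 to 5, at 45.8, 46.7, 55.3, 73.6 and 56.4 CPM in Aged and at 37.0, 39.4, 28.4, 39.1 and 48.2 CPM in Aged_NR. Every Aged library lay above every Young library, and of the Aged_NR libraries only replicate 5 reached the Aged range. The means were 37.4 ± 3.40 CPM in Young, 55.6 ± 11.2 in Aged and 38.4 ± 7.06 in Aged_NR (SD, n = 5 each). Foxk1 rose 1.50-fold from Young to Aged (log2 fold change 0.59, SE 0.15, adjusted p = 0.0107, edgeR) and was 1.46-fold lower in Aged_NR than in Aged (log2 fold change −0.54, SE 0.15, adjusted p = 0.0325, edgeR). From these same libraries the paper, with likelihood ratio tests, already reports Foxk1 as lowered by NR. Aged_NR differed from Young by a log2 value of 0.05 with a 95% interval from −0.27 to 0.37 (adjusted p = 0.917, edgeR), which bounds but does not exclude a difference of up to 1.29-fold. Without Young replicates 1 and 5, the rise with age was 0.50 (log2) and missed the threshold (adjusted p = 0.084, edgeR). The fall with NR missed it in 7 of the 15 fits that left out 1 library (Aged 3, 4 or 5, or Aged_NR 1, 2, 3 or 4, adjusted p between 0.0534 and 0.0942, edgeR) and with library totals as the scale (log2 fold change −0.40, adjusted p = 0.0845, edgeR).

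Foxk2, the paralog with a related DNA-binding domain, was at 20.0, 19.7, 20.2, 18.5 and 19.1 CPM in Young, at 8.81, 9.08, 12.6, 15.3 and 12.3 CPM in Aged and at 24.3, 12.8, 14.4, 12.4 and 11.4 CPM in Aged_NR. All Aged libraries lay below all Young libraries. Among Aged_NR libraries replicate 1 was above every Young library, and the other 4 were within the Aged range. Foxk2 fell 1.64-fold from Young to Aged (log2 fold change −0.71, SE 0.21, adjusted p = 0.0233, edgeR). The Aged_NR mean of 15.1 ± 5.26 CPM was between those of Young (19.5 ± 0.69) and Aged (11.6 ± 2.70 CPM, SD, n = 5 each). It differed from Aged by 0.34 (log2, 95% interval −0.10 to 0.79, adjusted p = 0.319, edgeR) and from Young by −0.37 (−0.80 to 0.07, adjusted p = 0.382, edgeR). Foxk2 counts were 45 to 71 per Young library, and the spread of the Young values, a coefficient of variation of 3.54%, was below the 13.7% that counting error alone gives at these counts. The fall with age kept its size but missed the threshold without Young replicates 1 and 5 (log2 fold change −0.71, adjusted p = 0.0797, edgeR). It was smaller and also missed the threshold without Aged replicate 1 (log2 fold change −0.61, adjusted p = 0.06, edgeR). The same held after thinning to the smallest total (log2 fold change −0.62, adjusted p = 0.217, edgeR).

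The ratio of Foxk1 to Foxk2 was taken within each library, where the scaling of libraries cancels, as 1 of 4 ratios of partner genes. It uses the same counts as the changes of the single genes, so it gives their joint size free of scaling and is no independent support for them. In a 3′ count table the ratio between 2 genes is not a ratio of molecules per length, so only its change between groups is read. There were 1.66, 2.01, 2.03, 2.05 and 1.80 Foxk1 counts per Foxk2 count in Young, 5.16, 4.87, 4.38, 4.79 and 4.58 in Aged and 1.52, 3.05, 1.96, 3.12 and 4.18 in Aged_NR. The Aged libraries lay above all others, and the Aged_NR libraries were spread from below the Young range to just under the Aged range. On the log2 scale the Aged mean of 2.25 ± 0.09 was 1.32 above the Young mean of 0.93 ± 0.13 (SD, n = 5 each), a 2.49-fold difference, with an exact two-sided permutation p of 0.00794, the smallest that 5 against 5 libraries allow, and an adjusted p of 0.0317 over the 12 ratio tests. Aged_NR, at 1.38 ± 0.58, was 0.87 below Aged (exact permutation p = 0.00794, adjusted 0.0317). It was 0.45 above Young (exact permutation p = 0.151, adjusted 0.333). Without Young replicates 1 and 5 the difference with age was 1.23 and its adjusted p was 0.107, where the exact p was the smallest that 3 against 5 libraries allow.

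**Figure D2:**
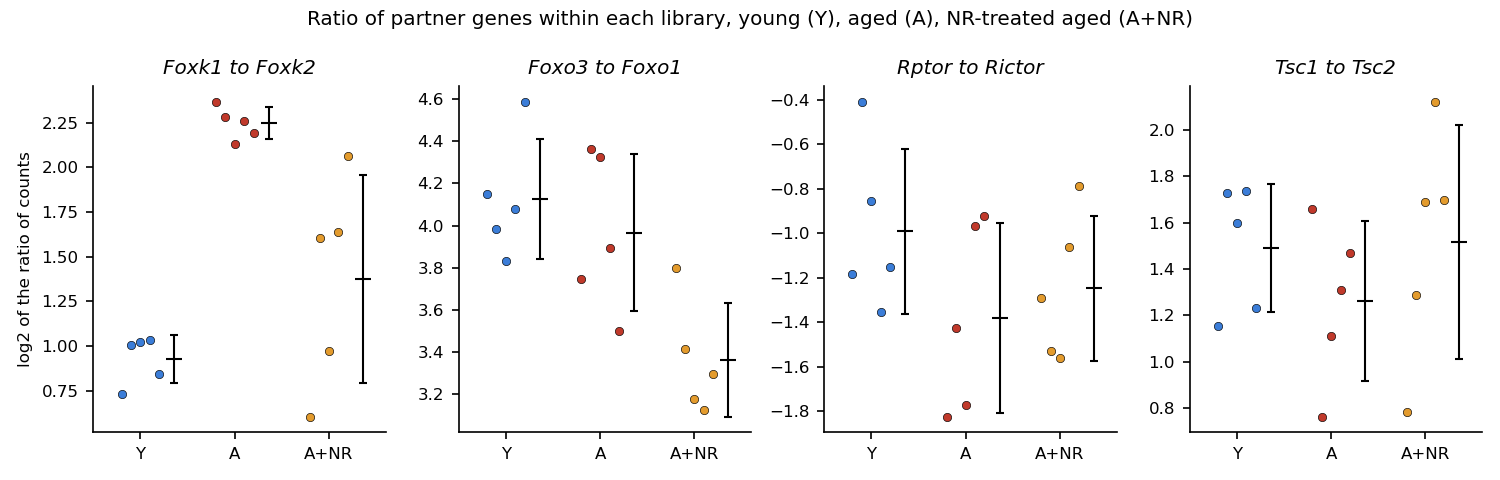
Each point is the log2 ratio of the counts of a pair of genes in 1 library (pseudocount 0.5), with the mean and SD of the 5 libraries beside it, and each panel has its own vertical scale that does not start at 0. For Foxk1 to Foxk2 the Aged libraries stand above all others, and for Foxo3 to Foxo1 all Aged_NR libraries stand below all Young libraries.

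None of the 3 FOXO genes was called by edgeR in any of the 3 comparisons, nor in any alternative fit, and only Foxo1 between Young and Aged_NR had an unadjusted p under 0.05. Foxo3 (chr10:42181841-42276755, − strand), the FOXO member most often tied to HSC maintenance, was at 408, 295, 431, 370.4 and 450.4 CPM in Young, at 358, 387, 527, 336 and 326 CPM in Aged and at 265, 396, 357, 358 and 224 CPM in Aged_NR. The groups overlapped throughout. Its log2 fold change was −0.01 from Young to Aged (95% interval −0.35 to 0.32, adjusted p = 0.964, edgeR) and −0.28 from Aged to Aged_NR (−0.61 to 0.06, adjusted p = 0.298, edgeR). Foxo1 (chr3:52268336-52353221, + strand) was at 22.8, 18.5, 30.1, 21.8 and 18.6 CPM in Young, at 26.6, 18.2, 26.2, 22.6 and 28.7 CPM in Aged and at 18.9, 37.0, 39.3, 40.9 and 22.6 CPM in Aged_NR. Aged_NR replicates 2, 3 and 4 stood above every Young and Aged library, while replicates 1 and 5 were within their range. Its log2 fold change from Young to Aged_NR was 0.50 (SE 0.21, adjusted p = 0.201, edgeR). Foxo4 (chrX:101254528-101260873, + strand) was at 20.7 to 23.2 CPM in Young, 19.9 to 29.8 in Aged and 12.8 to 27.6 in Aged_NR, with log2 fold changes of 0.19 with age and −0.29 with NR (adjusted p = 0.477 and 0.301, edgeR).

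The balance of Foxo3 against Foxo1 shifted where neither gene alone was called. There were 14.2 to 24.0 Foxo3 counts per Foxo1 count in Young libraries, 11.3 to 20.6 in Aged and 8.72 to 13.9 in Aged_NR. All Aged_NR values lay below all Young values, and both groups overlapped with Aged. The log2 ratio was 0.76 lower in Aged_NR than in Young (exact permutation p = 0.00794, adjusted 0.0317 over the 12 tests), 0.60 lower than in Aged (exact permutation p = 0.0238, adjusted 0.0714) and was not shown to differ between Young and Aged (difference −0.16, exact permutation p = 0.484, adjusted 0.581). Without Young replicates 1 and 5 the difference between Aged_NR and Young was −0.60 with an adjusted p of 0.107 (exact permutation, 3 against 5 libraries).

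Rptor, whose protein recruits substrates to mTORC1, was at 26.7, 30.5, 31.4, 30.1 and 28.3 CPM in Young, at 19.4, 11.7, 18.0, 21.7 and 16.1 CPM in Aged and at 19.2, 21.5, 24.5, 26.7 and 26.4 CPM in Aged_NR. All Aged libraries lay below all Young libraries, and Aged_NR libraries ran from the Aged range up to the lower edge of the Young range. Rptor fell 1.63-fold with age (log2 fold change −0.70, SE 0.15, adjusted p = 0.00347, edgeR), and this call was kept in all 24 alternative fits that tested the gene, the one without Young replicates 1 and 5 included (−0.77, adjusted p = 0.0124, edgeR). The Aged_NR mean of 23.7 ± 3.24 CPM was between those of Aged (17.4 ± 3.78) and Young (29.4 ± 1.91 CPM, SD, n = 5 each). It was 0.39 above Aged (log2, 95% interval 0.07 to 0.71, adjusted p = 0.117, edgeR), a difference that passed the threshold with library totals as the scale (0.53, adjusted p = 0.0333, edgeR), and 0.31 below Young (95% interval −0.63 to 0.00, adjusted p = 0.282, edgeR). Rptor was the only member whose Aged_NR and Young libraries did not overlap, which 4.74% of all genes showed, and its highest Aged_NR and lowest Young values were both 26.7 CPM when rounded. In the comparison with age, 4 of 10 members (Foxk1, Foxk2, Tsc1 and Rptor) had libraries that did not overlap, against 12.4% of all genes, and with NR none had, against 8.6%.

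Rictor, the mTORC2 scaffold, was at 40.6 to 77.3 CPM in Young, 30.5 to 68.8 in Aged and 45.7 to 72.7 in Aged_NR, and Mtor (chr4:148448611-148557683, + strand) at 20.8 to 31.2, 18.2 to 25.7 and 21.5 to 31.8 CPM. Neither gene was called by edgeR, with log2 fold changes from Young to Aged of −0.30 for Rictor (95% interval −0.74 to 0.14, adjusted p = 0.338) and −0.24 for Mtor (−0.57 to 0.09, adjusted p = 0.311). The log2 ratio of Rptor to Rictor was 0.39 lower in Aged than in Young, a difference within the spread between libraries (exact permutation p = 0.167, adjusted 0.333), so a change of one scaffold relative to the other was not shown.

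Tsc1 (chr2:28641228-28691167, + strand), which stabilises the GTPase-activating partner Tsc2, was at 39.3, 33.8, 41.3, 42.8 and 33.7 CPM in Young, at 33.5, 24.7, 26.1, 31.8 and 28.5 CPM in Aged and at 30.2, 32.2, 50.6, 46.8 and 43.6 CPM in Aged_NR. All Aged libraries were below all Young libraries, by a margin of 33.5 against 33.7 CPM, and Aged_NR replicates 3, 4 and 5 were above every Young library while replicates 1 and 2 were within the Aged range. The log2 fold change was −0.38 with age (SE 0.16, adjusted p = 0.0925, edgeR) and 0.47 with NR (SE 0.15, adjusted p = 0.0663, edgeR), both short of the threshold. The value with NR passed it with DESeq2 (adjusted p = 0.0426) and without Aged_NR replicate 1 or 2 (adjusted p = 0.0282 and 0.0488, edgeR). Both passed when genes under 10 counts in any library were left out (adjusted p = 0.0429 with age and 0.0343 with NR, edgeR) and with library totals as the scale (adjusted p = 0.0296 with age and 0.023 with NR, edgeR), a scale that moved the median log2 fold change of all genes from −0.03 to −0.16 with age and from 0.02 to 0.16 with NR. Tsc2 (chr17:24595816-24632630, − strand) was at 10.0 to 17.5 CPM in Young, 10.2 to 14.3 in Aged and 10.6 to 17.5 in Aged_NR, with log2 fold changes of −0.22 and 0.26 (adjusted p = 0.457 and 0.41, edgeR). It shares 693 exonic bases with Pkd1 on the opposite strand, and whether counting used strand is not given in the sources used here. The ratio of Tsc1 to Tsc2 was not shown to differ in any comparison (adjusted exact permutation p between 0.429 and 0.841).

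Across the 5 TSC and mTOR members, the log2 fold change was below 0 with age and above 0 with NR for 5 of 5, where 52.8% of all genes were below 0 with age and 51.8% above 0 with NR. Only Rptor with age passed the test. The pair of comparisons shares the Aged libraries, so a low Aged value enters both.

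**Figure D3:**
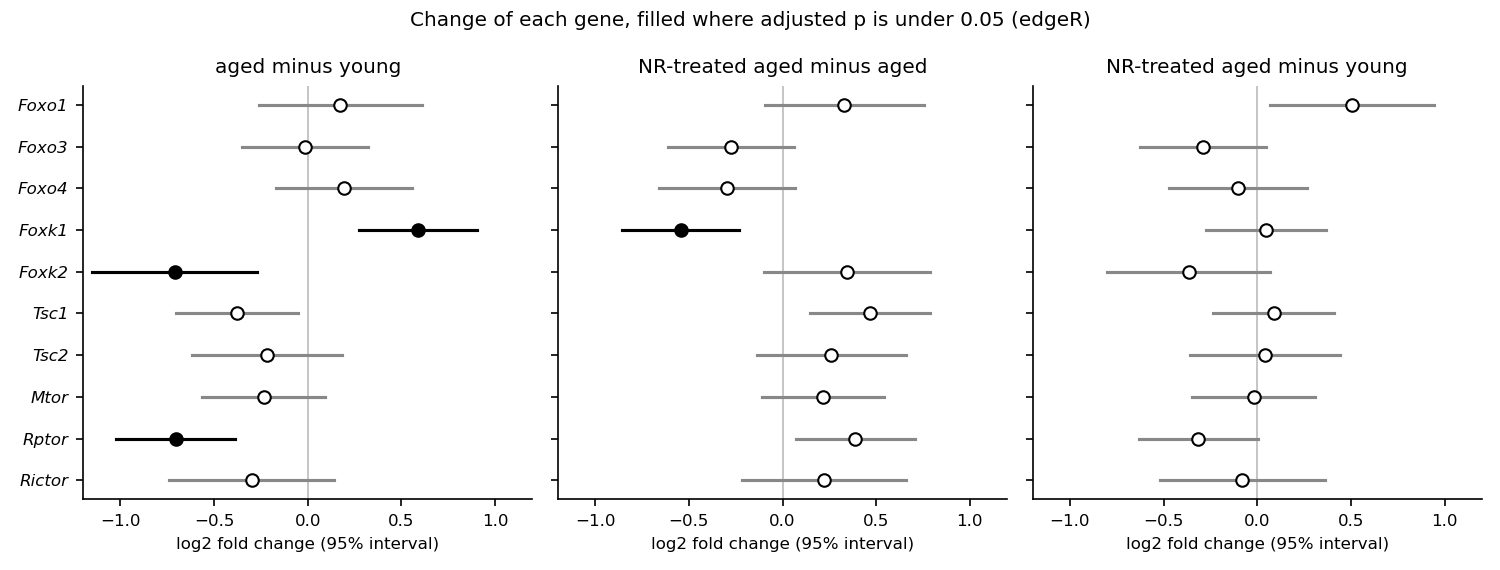
Points are log2 fold changes and lines their 95% intervals from the edgeR fit of all 15 libraries, in 1 panel per comparison, with the first-named group minus the second, and filled points have an adjusted p under 0.05. Foxk1 (0.59), Foxk2 (−0.71) and Rptor (−0.70) are filled with age, Foxk1 (−0.54) with NR, and no gene between NR-treated aged and young HSC.

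The levels of markers of some mature cell types differ between these groups in the same libraries, and their part in the results for Foxk1, Foxk2, Rptor and the Foxo3 to Foxo1 ratio was not tested. Young replicate 3 had the highest neutrophil and granule markers of all libraries (5203 CPM), and its Foxk1 (41.3 CPM), Foxk2 (20.2 CPM) and Rptor (31.4 CPM) were the highest of the Young group. Without this library the 3 calls with age were kept, but that fit held all Aged libraries and cannot test the part of the markers. Aged_NR replicate 5 had the highest erythroid markers of its group (548 CPM) and also the highest Foxk1 (48.2 CPM). Within Aged the extremes ran the other way for erythroid markers, though replicates 3 and 5 did not (4036 and 5208 CPM, with Foxk1 at 55.3 and 56.4 CPM). Replicates 1 and 2 had the highest (6442 and 6461 CPM) and the lowest Foxk1 (45.8 and 46.7 CPM). Aged replicate 4, with the highest Foxk1 (73.6 CPM), had the lowest erythroid (3123 CPM) and neutrophil and granule markers (1031 CPM) of its group, and the highest macrophage markers (1603 CPM).

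Other genes of the pathway were taken from lists. Of the 5 mTORC1 subunits, Rptor, already counted above, and Akt1s1 fell with age (9.63% of all genes fell), none rose, and the median log2 fold change was −0.53 against −0.03 for all genes. Akt1s1, which encodes the mTORC1 inhibitor PRAS40, fell from 15.1 ± 2.29 to 10.4 ± 1.41 CPM (log2 fold change −0.53, SE 0.18, adjusted p = 0.0445, edgeR). Of the 7 mTORC2 subunits, the list that shares Mtor, Mlst8 and Deptor with it, only Prr5l, whose product binds Rictor, was called (14.3% of the list, against 9.68% of all genes higher with age and 4.18% lower with NR). It rose from 21.2 ± 7.46 to 37.5 ± 2.71 CPM with age (adjusted p = 0.00672, edgeR) and was at 21.8 ± 5.50 CPM in Aged_NR (log2 fold change against Aged −0.77, SE 0.20, adjusted p = 0.0216, edgeR). The list medians were −0.13 with age and 0.22 with NR.

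Rheb, the GTPase that activates mTORC1, was the gene called among the 5 of the TSC complex and Rheb (20.0% of the list, against 9.68% of all genes higher with age and 4.18% lower with NR). It rose 1.33-fold with age, from 110.1 ± 17.1 to 146 ± 15.6 CPM (adjusted p = 0.0167, edgeR), and was 1.30-fold lower in Aged_NR than in Aged, at 113 ± 9.82 CPM (adjusted p = 0.0493, edgeR). With library totals as the scale Rheb lost both calls. The median of this list was 0.26 with age and 0.20 with NR.

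Upstream, 17 of 18 genes of the PI3K-AKT list were tested, and with age 1 rose (Pik3r1) and 4 fell, Pik3cd and Inpp5d among them, 5.88% and 23.5% of the list against 9.68% and 9.63% of all genes, with a list median of −0.30. Pik3r1, the regulatory subunit of PI3K, rose from 257 ± 27.4 to 429 ± 61.9 CPM (log2 fold change 0.74, SE 0.12, adjusted p = 0.000373, edgeR) and was at 252.4 ± 40.0 CPM in Aged_NR (log2 fold change against Aged −0.77, adjusted p = 0.00222, edgeR), with no overlap of libraries either time. Pik3cd, the catalytic subunit p110δ, fell 1.47-fold to 66.6 ± 11.2 CPM (adjusted p = 0.00444, edgeR), and Inpp5d, the lipid phosphatase SHIP1, from 88.0 ± 11.5 to 63.5 ± 1.71 CPM (adjusted p = 0.00753, edgeR). Akt1 was 1.42-fold higher in Aged_NR than in Aged (adjusted p = 0.0478, edgeR). None of the 11 AMPK and LKB1 genes was called by edgeR in any comparison, with 1, 1 and 2 of them at an unadjusted p under 0.05, while DESeq2, limma-voom and the likelihood ratio test each called 1 lower with NR and 0 in the other comparisons. The AMPK and LKB1 median was 0.10 with age and −0.07 with NR.

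Among the 29 genes of amino acid sensing, 2 rose and 2 fell with age (6.90% each, against 9.68% and 9.63% of all genes) and the median was 0.09. Sesn1, a stress-induced inhibitor of mTORC1, rose from 78.2 ± 4.07 to 138 ± 16.0 CPM (log2 fold change 0.82, SE 0.11, adjusted p = 2.35e-05, edgeR) and was at 90.9 ± 9.16 CPM in Aged_NR (log2 fold change against Aged −0.61, adjusted p = 0.0037, edgeR). The Castor genes moved in opposite directions with age, Gatsl3 (Castor1) up 1.75-fold (adjusted p = 0.0186) and Gatsl2 (Castor2) down 1.43-fold (adjusted p = 0.0438, edgeR). With NR, Gatsl2 was higher, and Sesn1 and Lamtor1, a subunit of the lysosomal Ragulator, were lower. Of 18 mTOR outputs only Eif4ebp1, the translational repressor 4E-BP1 that mTORC1 phosphorylates, rose with age (1.61-fold, from 212 ± 50.7 to 342 ± 35.8 CPM, adjusted p = 0.00264, edgeR). This was 5.56% of the list, against 9.68% of all genes. No output was called with NR, with 6 at an unadjusted p under 0.05 and 0 by DESeq2. The median of the outputs was −0.01 with age and −0.04 with NR, and that of amino acid sensing was −0.03 with NR.

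**Figure D4:**
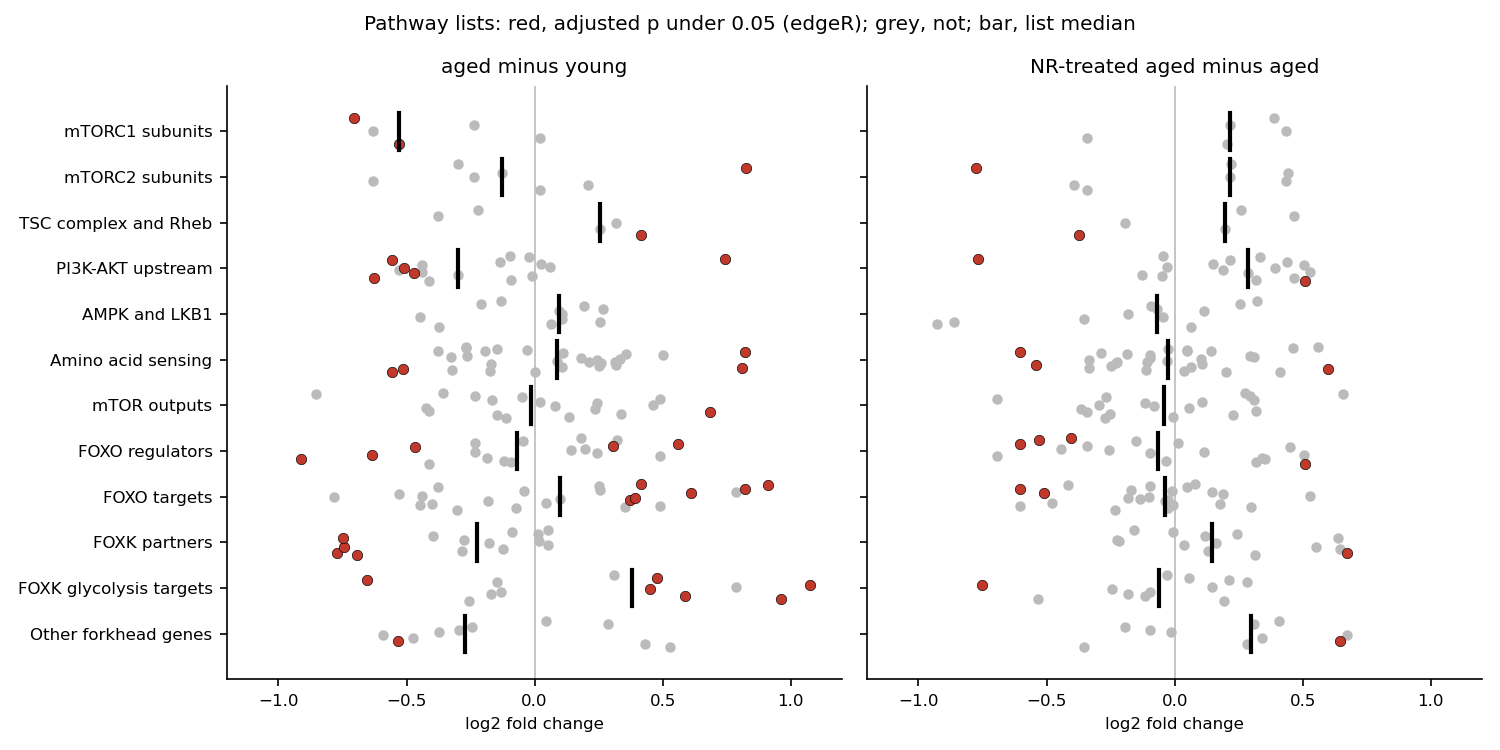
Each point is a gene of the list named at the left, the horizontal axis is its log2 fold change, red points have an adjusted p under 0.05 (edgeR), and the black bar is the median of the list. With age, 6 FOXO targets and 5 FOXK glycolysis targets lie to the right and 4 FOXK partners to the left, and with NR few points of any list are red.

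Of 18 regulators of FOXO, Ywhab and Ywhae rose and Usp7, Sirt1 and Ep300 fell with age, 11.1% and 16.7% of the list against 9.68% and 9.63% of all genes (median −0.07). Ywhae, a 14-3-3 protein, was at 857 ± 105 CPM in Young, 1263 ± 113 in Aged and 830.3 ± 83.2 in Aged_NR, a rise of 1.47-fold (adjusted p = 0.00119) and a 1.52-fold lower level with NR (adjusted p = 0.00393, edgeR). With NR the 14-3-3 genes Ywhaq (1.44-fold, adjusted p = 0.0165) and Ywhaz (1.32-fold, adjusted p = 0.0186, edgeR) were also lower, and the list median was −0.06. Ywhae, Ywhaq and Ywhaz made up 16.7% of the list, against 4.18% of all genes lower with NR. Akt1, also in this list, was called higher (5.56%, against 3.88% of all genes). Ep300, the acetyltransferase p300, fell 1.88-fold with age (adjusted p = 0.000869), and Sirt1, an NAD-dependent deacetylase of FOXO, fell 1.55-fold (adjusted p = 0.0361, edgeR). Sirt1 was at 29.7 ± 7.86 CPM in Young, 18.0 ± 5.87 in Aged and 27.3 ± 3.34 in Aged_NR, where the difference from Aged was not called (log2 fold change 0.51, adjusted p = 0.128, edgeR).

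Of 23 FOXO targets, 6 (26.1%, against 9.68% of all genes) rose with age and none fell: Sesn1, Txnip, Cited2, Map1lc3b, Gabarapl1 and Tnfsf10. The list median was 0.10. Tnfsf10, the death ligand TRAIL, rose 1.88-fold from 63.8 ± 9.57 to 119 ± 16.1 CPM (adjusted p = 0.000115, edgeR), and Map1lc3b, the autophagosome protein LC3B, rose 1.52-fold from 292 ± 52.0 to 445 ± 47.8 CPM (adjusted p = 0.00127, edgeR). This count depended on the scale, as with library totals 3 targets were called higher and 5 lower, and without Young replicates 1 and 5 it was 3 and 0. Sesn1 and Map1lc3b were the targets called lower in Aged_NR than in Aged (8.70%, against 4.18% of all genes), and Txnip and Tnfsf10 those called higher in Aged_NR than in Young (8.70%, against 2.56%). The median with NR was −0.04. The forkhead core GTAAACA was found in a promoter of 4 of the 21 FOXO targets matched, where 4.05% of all genes with a promoter held it.

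Of 14 partners of FOXK, 4 (28.6%, against 9.63% of all genes) fell with age and none rose: Asxl1, Asxl2, Mbd5 and Dvl2, with a list median of −0.23. Asxl2, a cofactor of the deubiquitinase BAP1, was at 106 ± 11.1 CPM in Young, 61.1 ± 12.6 in Aged and 99.6 ± 14.0 in Aged_NR, a 1.70-fold fall (adjusted p = 0.000558) and a 1.60-fold higher level with NR (adjusted p = 0.00773, edgeR). Without Young replicates 1 and 5, 1 partner was called with age. With NR the median was 0.15. Of 12 FOXK targets in glycolysis and pyruvate use, 5 (41.7%, against 9.68% of all genes) rose with age, Hk2, Pfkp, Ldha, Pdk3 and Pdp1, and 1 fell, Pfkm, with a median of 0.38. Hk2, hexokinase 2, rose 1.95-fold from 72.6 ± 17.1 to 140.1 ± 16.2 CPM (adjusted p = 0.000837) and Ldha, lactate dehydrogenase A, 1.50-fold from 590.0 ± 45.9 to 887 ± 50.5 CPM (adjusted p = 0.00055, edgeR). In Aged_NR, Hk2 was at 97.4 ± 26.1 CPM, short of the threshold against Aged (log2 fold change −0.53, adjusted p = 0.0602, edgeR). The paper, with likelihood ratio tests, reports Hk2 as significantly lower with NR. Pdp1 rose 2.11-fold (adjusted p = 8.75e-05, edgeR) and was the target called lower in Aged_NR (log2 fold change −0.75, adjusted p = 0.00846, edgeR). It encodes a phosphatase that activates pyruvate dehydrogenase, so its known role is opposite to that of Pdk3. Ldha was 1.39-fold higher in Aged_NR than in Young (adjusted p = 0.00845), as did Pfkp at 1.45-fold (adjusted p = 0.0345, edgeR). The median with NR was −0.06. With library totals as the scale, 3 of these targets were higher and 2 lower with age.

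Of the 10 other forkhead genes in the table, edgeR called Foxj2 with age, from 24.9 ± 5.66 to 16.9 ± 1.63 CPM (adjusted p = 0.0386), and with NR, to 26.9 ± 4.85 CPM (adjusted p = 0.0292). Foxn3 was lower in Aged_NR, at 336 ± 29.4 CPM, than in Young, at 440.4 ± 46.3 CPM (log2 fold change −0.39, adjusted p = 0.0433, edgeR). The medians were −0.27 with age and 0.30 with NR.

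Over the 15 libraries and 7117 genes (7118 for Foxk2) with a mean of at least 20 CPM, the profile of Foxk1 (log2 CPM) was most like those of Tmed10 (Pearson r = 0.94), Cpne3 (0.87) and Faim (0.87), that of Foxk2 like Pias2 (0.87), Osbpl3 (0.87) and Il17ra (0.86), and that of Rptor like Ranbp2 (0.94), Dennd4b (0.93) and Cerk (0.93). These values describe 15 points that share groups, depth and scaling. With the group means removed they were lower, 0.85 for Tmed10, 0.68 for Pias2 and 0.86 for Ranbp2.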

How the data were processed

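RNA from HSC of 15 mice was sequenced from 3′ ends with a 10 bp UMI. Per the labels and the study's methods, the authors aligned reads with STAR 2.4.2a to GRCm38 (the labels also give mm10), removed duplicated UMIs, counted exons with featureCounts and deposited raw counts for genes with more than 5 reads and 2 CPM in at least 2 samples. Libraries held 764119 to 13318989 counts. Counts were tested with edgeR 4.0.16 (R 4.3.3): TMM, 1 fit of all 15 libraries, quasi-likelihood test, Benjamini-Hochberg over 16154 genes at 0.05. CPM values use TMM sizes. Ratios used a pseudocount of 0.5 and exact two-sided permutation over 252 arrangements, adjusted over 12 tests. Other steps used Python 3.11.15 with pandas 2.3.3 and SciPy 1.17.1. Scripts were tested on simulated data with 200 genes changed 2-fold in Aged_NR. There the quasi-likelihood test recovered 49.5% of the changed genes, with 3.88% of its calls false. False shares were 12.2% for the likelihood ratio test, 9.24% for DESeq2 and 5.88% for limma-voom. Members and lists were chosen with earlier results of these data known. All members are named, with at most 3 called genes per list and comparison with full values and the 3 genes most correlated with each called member. Other called genes are named in counts of a list, and some are not reported here. Gene positions are from GENCODE M21, a later release than the authors counted on. Alternatives were other tests (likelihood ratio, DESeq2 1.42.0, limma-voom 3.58.1), scales, a filter of 10 counts in every library, thinning, a replicate block, another pseudocount, medians, only the 2 groups compared, Young 1 and 5 left out, and each library left out. No 2 libraries of a group were copies (chi-square per degree of freedom 3.21 to 17.5). Replicate numbers did not pair mice (mean correlation of deviations 0.00666).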

Additional observations from a re-analysis of the deposited data

Results flagged for a closer look

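Foxk2 was at 24.3 CPM in Aged_NR replicate 1, far above the other 4 libraries of that group (11.4 to 14.4 CPM). Its gap to the nearest was 0.77 of the group's range, above Dixon's 95% value of 0.71 for 5 samples. Across the 42 groups of values examined, chance flags about 1 in 20.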

How the results depend on the processing

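Of the 744 values of members' log2 fold changes under alternatives, 703 kept their direction and side of the threshold. Without Young replicates 1 and 5, 1 member was called with age. With NR, 2 members were called with DESeq2 and with at least 10 counts in every library (Foxk1 and Tsc1), and 2 with library totals (Tsc1 and Rptor, with Foxk1 lost). The number was 0 after thinning to the smallest total and 0 to 1 with each library left out. The filter left 8 members tested, without Foxk2 and Rptor. Thinning gave 1550, 409 and 405 called genes with age, with NR and between Aged_NR and Young, and Foxk2 with age (log2 fold change −0.62, adjusted p = 0.217) and Foxk1 with NR (−0.41, adjusted p = 0.257, edgeR) lost their calls with folds in the same direction. Without Young 1 and 5, 1862 genes were called with age, and the filter gave 783 with NR. With each library left out the counts were 1953 (without Aged 3) to 3533, 422 (without Aged 3) to 1535, and 452 (without Aged_NR 4) to 922. A fit with the replicate number as a replicate block called 3, 1 and 0 members and 2836, 1048 and 589 genes, and changed no call of a member.

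Over all alternatives the adjusted p (edgeR, DESeq2 or limma-voom) was 0.00359 to 0.084 for Foxk1 with age, 0.0066 to 0.217 for Foxk2 with age, 0.000384 to 0.0487 for Rptor with age, 0.0141 to 0.257 for Foxk1 with NR, and 0.0296 to 0.282 and 0.023 to 0.499 for Tsc1 with age and with NR. Fold changes that turned direction were all uncalled. Foxo3 with age was 0.083 without Young 1 and 5 and −0.16 to 0.042 with each library left out. Between Young and Aged_NR, Foxk1 was −0.044 without Young 1 and 5, and after thinning Tsc1 was −0.083, Mtor 0.0031 and Rptor 0.0044. There the values with each library left out were −0.23 to 0.021 for Foxo4, −0.051 to 0.13 for Foxk1, −0.00044 to 0.18 for Tsc1, −0.049 to 0.15 for Tsc2, −0.11 to 0.053 for Mtor and −0.19 to 0.029 for Rictor (log2).

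Log2 ratios mostly lost their calls with fewer samples. Of the 216 ratio values under alternatives, 48 lost a call and 2 gained one. With 4 against 5 libraries, the smallest exact p passes after adjustment only if enough of the other ratio tests are also low. Leaving out a library outside the comparison also moves the adjustment. Ranges with each library left out were 1.27 to 1.35 and −1.04 to −0.68 for Foxk1 to Foxk2 with age and with NR, −0.87 to −0.65 and −0.72 to −0.50 for Foxo3 to Foxo1 between Aged_NR and Young and with NR, and −0.13 to 0.21 for Tsc1 to Tsc2 between Young and Aged_NR. Without Young 1 and 5, Foxk1 to Foxk2 was 1.23 with age and −0.87 with NR, Foxo3 to Foxo1 was 0.0032 with age and −0.60 between Young and Aged_NR, and Tsc1 to Tsc2 was −0.17 there. Differences of medians were 1.25, −0.65 and −0.78 (adjusted exact permutation p = 0.143 for each), and the cause was not tested. A pseudocount of 5 took Foxo3 to Foxo1 with NR (−0.56) past the threshold (adjusted exact permutation p = 0.0476).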
